A study of Homo sapiens with 12 samples.

Results

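Mitosis and G2/M genes encode the proteins that take a cell from the end of DNA synthesis through chromosome segregation to division. The set described here has 55 members of the 25369 rows in each expression table, chosen by name as mitotic kinases, cyclins, checkpoint, kinetochore, spindle and condensin genes. All 55 were found in both tables and all 55 passed the filter on low values in both lines. They were followed in 2 human lymphoma cell lines carrying a doxycycline-inducible guide RNA against PRMT5, an arginine methyltransferase that marks histones and splicing proteins. TMD8 is a line of the activated B cell-like type of diffuse large B cell lymphoma (ABC DLBCL), and OCI-Ly7 one of the germinal centre B cell-like type (GCB DLBCL). RNA sequencing was done after 0, 3 or 6 days of doxycycline at 20 ng/ml, with 2 libraries per day and line, 12 in all. Every library, day 0 included, came from cells that carry the guide. No cells with doxycycline and a guide without a target are among these samples, so an effect of doxycycline or of time in culture cannot be told apart from that of the guide. One protocol note names shorter inductions, and the days used here follow the sample titles and characteristics. Nothing in the labels says that the 2 libraries of a group came from separate cultures, so p-values measure only the spread between libraries.

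As background, entry into mitosis is driven by CDK1 bound to cyclin B, switched on by CDC25 phosphatases and helped by the Aurora and Polo kinases. The spindle checkpoint then holds the anaphase-promoting complex, with its activator CDC20, until kinetochores are attached, after which cyclin B and securin are destroyed and the chromatids part. Many of these genes are silent in resting cells and are transcribed together late in the cycle, under the MuvB complex, B-MYB and FOXM1. In bulk RNA a smaller share of cells in G2 and M and less transcript per such cell cannot be told apart.

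Expression is given as FPKM, fragments per kilobase of transcript, scaled to the mapped fragments of the library. The tables carry no read counts, so absolute depth is unknown. The sum of FPKM lay between 397477 and 467844 per library, and 10092 to 11021 genes reached 1 FPKM. Depth relative to the first day 0 library of the same line, read from the steps between low values, was 0.54 to 0.732 at days 3 and 6 in TMD8 and 0.774 to 0.914 in OCI-Ly7. The row for 45S holds the precursor of ribosomal RNA. By estimate it took 6.97% and 10.6% of fragments in the day 0 libraries of TMD8 and 23.5% to 27.3% later. In OCI-Ly7 it took 13.9% and 14.9% at day 0 and 19.1% to 27.4% later. These shares were worked out from the FPKM of the row and a RefSeq length of 13357 nt, not from counts. Since FPKM values are shares of a library, a larger share for this row leaves less for other genes. The median change of all tested genes in TMD8 at day 6 was -0.31 on the log2(FPKM + 1) scale. Counts of calls are therefore given on FPKM as deposited and again after median-ratio scaling, with scaled values for most of the single members described. For the latter a library's values are divided by their median ratio to the typical library of its line, so that the median gene shows no change. The B cell genes CD79A, CD79B, MS4A1, PAX5 and CD22 were present in both lines. The 7 T and NK cell and 6 myeloid markers all stayed under 1 FPKM, and the summed 6 stromal and epithelial markers ran from 0.831 to 1.59 FPKM in TMD8 and from 11.1 to 13.0 in OCI-Ly7, where COL1A1, EPCAM and PECAM1 exceeded 1. PRMT5 itself was 64.8 and 60.5 FPKM at day 0 in TMD8, 41.3 and 42.0 at day 3, and at day 6 it was 49.6 and 54.7. OCI-Ly7 gave 37.9 and 46.9, then 29.3 and 32.1, then 21.0 and 19.2. The targeted transcript was thus lower at day 6 in both lines on FPKM as deposited (log2 change -0.26, adjusted p = 0.0262, and -1.04, adjusted p = 0.0345). After median-ratio scaling the TMD8 value was 0.10 (adjusted p = 0.201).

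In TMD8 the members fell together. Their summed expression was 2580 and 2437 FPKM at day 0, 1923 and 1847 at day 3, then 1780 and 1778 at day 6. As a share of all FPKM this was 0.558% and 0.521%, then 0.469% and 0.465%, then 0.4% and 0.41%. In both later groups, each of the 55 members was lower in both libraries than in either day 0 library, which was true of 83.8% of all tested genes at day 3 and 73.4% at day 6. By limma on log2(FPKM + 1), with p-values adjusted by the Benjamini-Hochberg method over all genes of the line and a threshold of 0.05, 53 members were lower and 0 higher at day 3, against 41.5% of all genes called lower and 1.5% higher. At day 6, 52 were lower and 0 higher, against 51.7% and 3.89% of all genes. The median log2 change of the members was -0.40 at day 3 and -0.54 at day 6, beside -0.27 and -0.31 for all tested genes. After median-ratio scaling none of the 55 passed at day 3 (14 at an unadjusted p under 0.05, with 0.0765% of all genes called lower and 0.143% higher), and at day 6 19 were lower and 2 higher, against 13.5% and 15.4% of all genes. Their medians were then -0.12 and -0.20. The day 3 count also became 0 when any 1 of the 4 libraries compared was left out. The day 6 count was 32 without the first day 0 library and 43 to 51 without any other. Relative depth and the 45S share also changed between day 0 and the later days, as given above, and their part in these counts was not tested beyond the scaling.

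Fewer members passed in OCI-Ly7 than in TMD8 at each day as deposited, while at day 3 none passed after scaling in either line. The summed member expression was 2634 and 2723 FPKM at day 0, 2451 and 2195 at day 3, then 2287 and 2150 at day 6. As a share of all FPKM it was 0.579% and 0.6%, then 0.582% and 0.538%, then 0.523% and 0.526%. Both later libraries lay below both day 0 libraries for 37 members at day 3 (41.1% of all genes) and for 46 at day 6 (48.6% of all genes). No member passed limma's threshold at day 3 (11 at an unadjusted p under 0.05), where 0.0726% of all genes were called lower and the same share higher. After median-ratio scaling no member passed either (5 at an unadjusted p under 0.05), with 0.0545% of all genes lower and 0.0635% higher. At day 6, 13 members were lower and 0 higher, against 9.39% of all genes called lower and 1.98% higher, and 33 had an unadjusted p under 0.05. The median of the members was -0.21 at day 3 and -0.34 at day 6, beside -0.12 and -0.13 for all tested genes. Median-ratio scaling left 10 members lower, all among the 13, and made 2 higher, against 8.05% and 6.71% of all genes, with a median of -0.19. These calls did not hold without any 1 of the 4 libraries of days 0 and 6, a fit that leaves 1 library in a group. The median of the members then lay between -0.38 and -0.29. The heat map of all members by library shows both patterns.

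**Figure D1:**
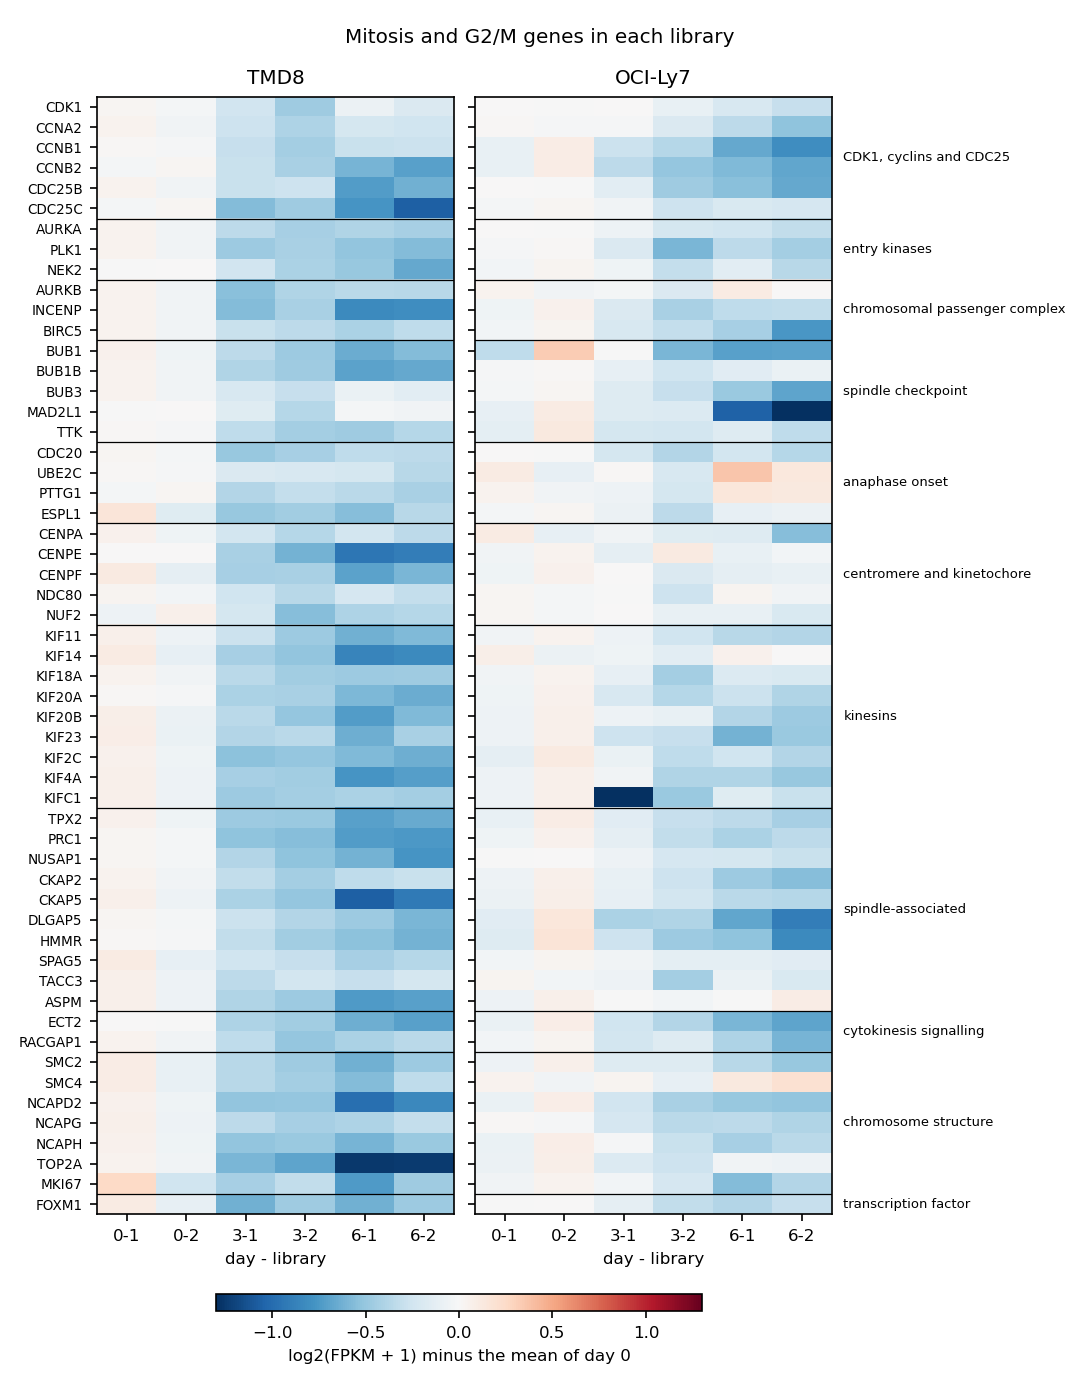
Heat map of the 55 members (rows, grouped by role) in the 6 libraries of each line (columns, day and library number). Colour is log2(FPKM + 1) minus the mean of the 2 day 0 libraries of the line. TMD8 is blue in nearly all rows at days 3 and 6, with TOP2A deepest at day 6, whereas OCI-Ly7 is paler, with MAD2L1 deepest at day 6 and KIFC1 dark in the day 3 library where it is listed at 0.

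The count of members that moved further between day 3 and day 6 depended on the scaling. In TMD8, 5 were lower at day 6 than at day 3 by limma, and 0 higher, against 4.47% and 3.38% of all genes. They were TOP2A (-0.61, SE 0.07), CKAP5 (-0.53, SE 0.08), CDC25B (-0.40, SE 0.08), CENPE (-0.40, SE 0.09) and NCAPD2 (-0.40, SE 0.07). After median-ratio scaling KIF4A (-0.25, adjusted p = 0.0458) joined these 5, against 5.1% of all genes lower and 6.56% higher. As deposited, 23 members had an unadjusted p under 0.05. With an equal sum of FPKM per library 20 passed, and 19 after rescaling without ribosomal RNA, small RNA and histone rows. The shares of all genes called under these 2 settings are not given here, so neither count can be read as particular to the members. Without any 1 library of the line the as-deposited count lay between 0 and 3. In OCI-Ly7 no member passed (14 at an unadjusted p under 0.05, with 0.118% of all genes called lower and 0.0999% higher), and after median-ratio scaling MAD2L1 was lower (-1.0, adjusted p = 0.0332) and PTTG1 higher (0.31, adjusted p = 0.0487), against 4.52% and 4.23% of all genes. The mean of the 2 libraries fell from day 0 to day 3 and again to day 6 in 40 members in each line, which was true of 54.5% of all tested genes in TMD8 and 41.7% in OCI-Ly7. These are counts of means, with no test.

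The promoters of these genes share sequence elements. The element known as the cell cycle genes homology region (CHR), with the core letters TTTGAA, is the site that MuvB binds, and the CCAAT box is bound by NF-Y. RefSeq promoter windows (GRCh38.p14, 250 bases before to 50 after each transcript start) matched 47 of the 55 members. AURKA, BIRC5, BUB3, FOXM1, RACGAP1, TPX2, TTK and UBE2C were not matched. On either strand, TTTGAA was found in 34 of the 47 members (72.3%), beside 18.2% of 27305 genes with a window and 13.6% of the 7662 such genes tested in TMD8. CCAAT was found in 36 of 47 (76.6%), beside 39.7% of all genes with a window, and both motifs in 27 of 47 (57.4%), beside 8.37%. The variant TTCGAA was found in 3 of 47 (6.38%), beside 1.82%. Taking only genes with 1 window, TTTGAA was in 29 of 39 members (74.4%) and 16% of all genes. Among the other lists described further on, the hexamer was in 27 of 52 other mitotic genes (51.9%) and 5 of 17 genes listed with the anaphase-promoting complex (29.4%). It was in 2 of 8 cohesin genes (25%) and 1 of 35 DNA replication and G1/S genes (2.86%). CCAAT was in 69.2%, 47.1%, 50% and 57.1% of these, in the same order.

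The 120 bases before the transcript start are shown for 8 members that hold both motifs. CKAP5, CDC25C and INCENP are among the members with the lowest day 6 change in TMD8, DLGAP5, HMMR and ECT2 among those with the lowest in OCI-Ly7, and PLK1 and CDK1 are the central kinases. Capitals mark TTTGAA or its reverse complement TTCAAA, and CCAAT or its reverse complement ATTGG. Sequences run 5′ to 3′ on the strand of the gene, which is given with the GRCh38.p14 position.
CKAP5 (chr11:46846281-46846400, minus strand): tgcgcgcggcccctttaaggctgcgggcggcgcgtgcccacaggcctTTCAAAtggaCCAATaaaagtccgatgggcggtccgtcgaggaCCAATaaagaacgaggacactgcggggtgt
CDC25C (chr5:138331805-138331924, minus strand): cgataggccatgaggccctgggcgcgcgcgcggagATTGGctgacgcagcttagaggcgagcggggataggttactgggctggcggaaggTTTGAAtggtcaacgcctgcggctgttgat
INCENP (chr11:62123891-62124010, plus strand): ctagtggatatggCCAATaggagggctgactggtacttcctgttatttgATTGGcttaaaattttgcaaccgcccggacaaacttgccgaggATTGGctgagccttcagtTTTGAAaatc
DLGAP5 (chr14:55191586-55191705, minus strand): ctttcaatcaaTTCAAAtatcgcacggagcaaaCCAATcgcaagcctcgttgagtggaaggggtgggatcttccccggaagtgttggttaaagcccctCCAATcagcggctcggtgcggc
HMMR (chr5:163460512-163460631, plus strand): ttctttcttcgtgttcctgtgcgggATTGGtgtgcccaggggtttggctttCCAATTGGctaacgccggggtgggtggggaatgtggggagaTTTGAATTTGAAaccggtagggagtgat
ECT2 (chr3:172750606-172750725, plus strand): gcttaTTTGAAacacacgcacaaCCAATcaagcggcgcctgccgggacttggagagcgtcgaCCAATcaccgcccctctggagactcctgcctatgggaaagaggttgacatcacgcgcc
PLK1 (chr16:23678769-23678888, plus strand): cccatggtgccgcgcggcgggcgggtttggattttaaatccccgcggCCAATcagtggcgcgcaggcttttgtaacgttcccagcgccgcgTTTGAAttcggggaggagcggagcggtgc
CDK1 (chr10:60778358-60778477, plus strand): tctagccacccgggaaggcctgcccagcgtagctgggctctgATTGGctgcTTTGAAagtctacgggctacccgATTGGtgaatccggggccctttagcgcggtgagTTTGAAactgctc
Positions here are those within the 120 bases shown, and matches after the start are left out. In CDC25C, INCENP, HMMR, PLK1 and CDK1 the hexamer of the stretch closest to the start begins 30, 10, 22, 29 and 13 bases before it. A CCAAT box lies farther from the start in the same stretch. In CKAP5, DLGAP5 and ECT2 the hexamer of the stretch lies 73, 109 and 115 bases before the start, and the CCAAT boxes lie between it and the start. Members with and without TTTGAA had similar changes. In TMD8 the median day 6 log2 change was -0.59 for the 34 members with it and -0.54 for the 13 without, and in OCI-Ly7 it was -0.34 for both. Among all tested genes with a window, the medians with and without TTTGAA were -0.33 and -0.32 in TMD8 and -0.15 and -0.14 in OCI-Ly7. A match is a run of letters and not a measured binding site. In the plot of motif positions the members' hexamers gather near the start and their CCAAT boxes just upstream.

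**Figure D2:**
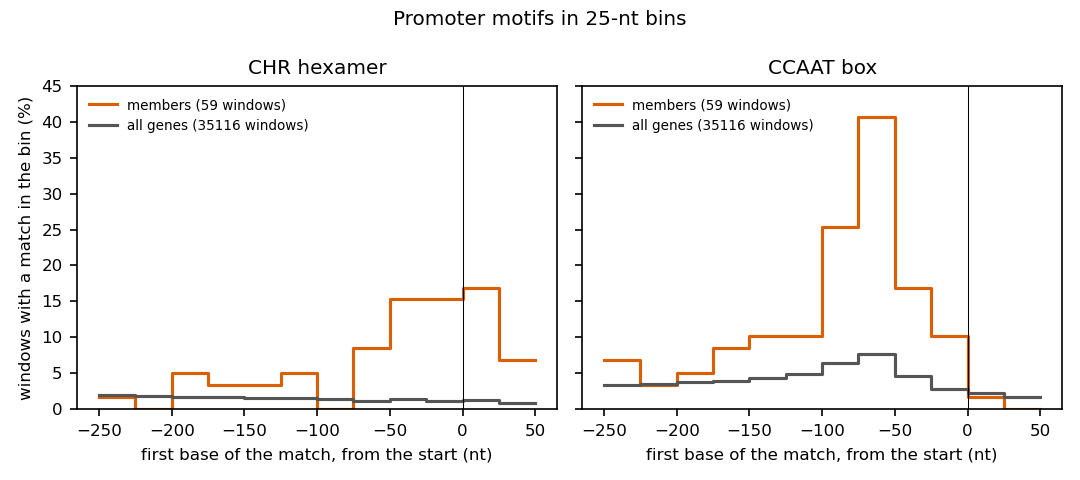
Share of promoter windows (vertical axis, percent) with a match beginning in each 25-nt bin, by distance from the transcript start (horizontal axis), for the 59 windows of members and all 35116 windows. The CHR hexamer begins in 15.3% to 16.9% of member windows in each bin from -50 to 25, beside 1.17% to 1.43% of all windows, and the CCAAT box peaks at 40.7% in the bin from -75 to -50.

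The counts by role that follow compare day 6 with day 0. Beside them, 51.7% of all genes were called lower in TMD8 and 9.39% in OCI-Ly7 as deposited, and 13.5% and 8.05% after scaling. CDK1, the kinase that starts mitosis, was among the least changed members in TMD8. It was 63.9 and 61.5 FPKM at day 0, 52.7 and 45.3 at day 3, then 59.4 and 55.0 at day 6, a day 6 log2 change of -0.13 that did not pass (SE 0.09, adjusted p = 0.246, and 0.23, adjusted p = 0.132, after scaling). In OCI-Ly7 it was 80.1 and 79.3, then 80.0 and 74.7, then 69.1 and 64.4 (-0.25, adjusted p = 0.12). Its partner CCNB1, cyclin B, parted the lines. In TMD8 CCNB1 was 137 and 135 FPKM at day 0, 110 and 99.8 at day 3, then 111 and 112 at day 6 (-0.29, SE 0.06, adjusted p = 0.0132, and 0.08 after median-ratio scaling). In OCI-Ly7 CCNB1 went from 135 and 155 through 119 and 112 to 90.9 and 82.1, so that day 6 held 59.6% of the day 0 mean (-0.74, SE 0.11, adjusted p = 0.0345, and -0.59, adjusted p = 0.0278, after scaling). CCNB2, the second mitotic cyclin B, fell in both lines, to 62.9% of day 0 in TMD8 and 64.4% in OCI-Ly7. After scaling it passed in OCI-Ly7 (-0.47, adjusted p = 0.0312) and not in TMD8 (-0.30, adjusted p = 0.0618). CDC25C, a phosphatase that activates CDK1, fell from 6.27 and 6.5 FPKM to 3.33 and 2.54 at day 6 in TMD8 (-0.92, SE 0.12, adjusted p = 0.00308, and -0.62, adjusted p = 0.029, after scaling). In OCI-Ly7 its values were 7.89 and 8.27 at day 0 and 6.93 and 6.8 at day 6 (-0.21, adjusted p = 0.239). CDC25B, a phosphatase of the same family, fell in both lines and under both scalings (-0.67 and -0.60 as deposited). Of these 6 genes with cyclin A (CCNA2), 5 fell in TMD8 and 3 in OCI-Ly7. After scaling these counts were 2 and 3.

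The entry kinases fell in TMD8 by amounts near that of the whole set. PLK1, the Polo kinase needed for spindle assembly, was 125 and 118 FPKM at day 0, 87.4 and 90.2 at day 3, then 84.7 and 81.9 at day 6 (-0.54, SE 0.06, adjusted p = 0.00244). AURKA, which matures the spindle poles, was 53.9 and 50.4, then 40.9 and 38.3, then 39.6 and 38.3 (-0.41, SE 0.07, adjusted p = 0.00544). In OCI-Ly7 PLK1 was 58.2 and 59.6, then 51.5 and 38.8, then 46.3 and 43.1, and AURKA 39.1 and 39.0, then 37.2 and 33.2, then 32.5 and 31.1. Both sets of day 6 libraries lay below day 0, but neither gene passed there (-0.39, adjusted p = 0.13, and -0.29, adjusted p = 0.106). With NEK2, a centrosome kinase, 3 of 3 fell in TMD8 and none of 3 in OCI-Ly7 (2 at an unadjusted p under 0.05), and none of 3 passed after scaling in either line (1 in each at an unadjusted p under 0.05).

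The chromosomal passenger complex corrects faulty spindle attachments, and its 3 genes fell in TMD8. Its kinase AURKB was 88.7 and 83.3 FPKM at day 0 in TMD8, 58.6 and 65.5 at day 3, then 67.3 and 66.6 at day 6 (-0.36, SE 0.07, adjusted p = 0.0103, and 0.004 after scaling). In OCI-Ly7 AURKB was 148 and 139, then 141 and 126, then 154 and 144, with day 6 overlapping day 0 (0.05, adjusted p = 0.735). INCENP, the scaffold of the complex, fell in TMD8 from 27.6 and 25.7 to 14.6 and 14.8 (-0.81, SE 0.08, adjusted p = 0.00185, and -0.47, adjusted p = 0.013, after scaling). BIRC5, survivin, which anchors the complex at centromeres, was 55.4 and 51.8, then 43.7 and 42.2, then 40.1 and 42.3 in TMD8 (-0.37, SE 0.07, adjusted p = 0.0067, and -0.01 after scaling). In OCI-Ly7 BIRC5 was 51.2 and 53.7, then 45.1 and 42.0, then 38.6 and 30.7, and was the one gene of the 3 to pass there (-0.59, SE 0.13, adjusted p = 0.0461, and -0.44, adjusted p = 0.0497, after scaling).

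At day 3, 5 of 5 spindle checkpoint genes were lower in TMD8 as deposited, against 41.5% of all genes. After scaling none was (0 also at an unadjusted p under 0.05), against 0.0765% of all genes. At day 6, BUB1, BUB1B and TTK were lower there as deposited, and the other 2, MAD2L1 and BUB3, were lower in OCI-Ly7. MAD2L1, which encodes the MAD2 protein that sequesters CDC20, was 95.4 and 95.5 FPKM at day 0 in TMD8, 85.2 and 73.6 at day 3, then 94.0 and 92.7 at day 6. Its day 6 log2 change there was -0.03 (SE 0.08, adjusted p = 0.743), and 0.33 after median-ratio scaling (adjusted p = 0.0387). In OCI-Ly7 MAD2L1 was 66.6 and 77 at day 0, 63.6 and 63.0 at day 3, then 34.0 and 27.5 at day 6. That left 42.9% of the day 0 mean, and the log2 change of -1.20 (SE 0.14, adjusted p = 0.0345, and -1.05, adjusted p = 0.0246, after scaling) was lower than that of all but 0.944% of tested genes. BUB3, a partner of the BUB kinases, went from 63.6 and 59.3 to 57.9 and 55.8 in TMD8 (-0.11, adjusted p = 0.214, and 0.25, adjusted p = 0.0497, after scaling) and from 113 and 117 to 82.2 and 71.2 in OCI-Ly7 (-0.58, adjusted p = 0.0378, and -0.43, adjusted p = 0.0317, after scaling). BUB1B, the checkpoint protein BUBR1, went the other way. It was 45.9 and 42.8, then 33.6 and 31.8, then 26.9 and 27.6 in TMD8 (-0.68, SE 0.07, adjusted p = 0.002, and -0.33, adjusted p = 0.0139, after scaling). In OCI-Ly7 BUB1B was 78.6 and 80.4, then 73.9 and 66.5, then 71.5 and 74.6 (-0.12, adjusted p = 0.416). BUB1, the kinase that recruits other checkpoint proteins, fell in TMD8 from 52.7 and 48.9 to 32.2 and 34.0 (-0.60, adjusted p = 0.00302, and -0.25, adjusted p = 0.0303, after scaling). In OCI-Ly7 its day 0 libraries were 18.2 and 29.4 and its day 6 libraries 13.8 and 13.9, a change of -0.70 with an SE of 0.28 that did not pass (adjusted p = 0.141). TTK, the kinase MPS1, fell in TMD8 as deposited (-0.42, adjusted p = 0.00617, and -0.07, adjusted p = 0.393, after scaling), and its value in OCI-Ly7 was -0.26 (adjusted p = 0.201).

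Of 4 genes of anaphase onset, 4 fell in TMD8 and none passed in OCI-Ly7 as deposited (1 at an unadjusted p under 0.05). CDC20, the activator of the anaphase-promoting complex, was 134 and 130 FPKM at day 0 in TMD8, 93.8 and 97.4 at day 3, then 105 and 104 at day 6 (-0.34, SE 0.06, adjusted p = 0.00529, and 0.02 after scaling). In OCI-Ly7 CDC20 was 110 and 109, then 93.4 and 83.7, then 92.9 and 84.5 (-0.30, adjusted p = 0.106). UBE2C, the ubiquitin-conjugating enzyme of that complex, was 114 and 97.8 FPKM in OCI-Ly7 at day 0, 107 and 91.0 at day 3, then 136 and 116 at day 6 (0.25, SE 0.14, adjusted p = 0.264), and fell in TMD8 from 82.9 and 81.7 to 70.2 and 63.8 (-0.29, adjusted p = 0.0128, and 0.07 after scaling). PTTG1, securin, the inhibitor of separase, was 181 and 170, then 168 and 150, then 194 and 192 in OCI-Ly7 (0.14, adjusted p = 0.357, and 0.29, adjusted p = 0.0437, after scaling). Both of its day 6 libraries lay above both at day 0. In TMD8 PTTG1 fell from 93.5 and 97.0 to 74.6 and 70.7 (-0.39, adjusted p = 0.00502). ESPL1, separase, fell in TMD8 (-0.46, adjusted p = 0.0249). None of the 4 was past the threshold after scaling in TMD8 (0 also at an unadjusted p under 0.05).

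All 5 centromere and kinetochore genes fell in TMD8, and CENPE and CENPF passed after scaling. CENPE, a kinesin that carries chromosomes to the spindle equator, was 13.9 FPKM in both day 0 libraries of TMD8, 10.1 and 8.72 at day 3, then 6.75 and 6.97 at day 6 (-0.92, SE 0.09, adjusted p = 0.00185, and -0.59, adjusted p = 0.00897, after scaling). In OCI-Ly7 CENPE was 6.25 and 6.77, then 5.9 and 7.16, then 6.04 and 6.3, with overlapping groups. CENPF, a large kinetochore protein of G2 and M, was 23.7 and 20.1, then 15.9 and 16.1, then 13.1 and 14.1 in TMD8 (-0.64, SE 0.09, adjusted p = 0.00397) and 18.6 and 20.3, then 19.5 and 17.0, then 17.9 and 18.1 in OCI-Ly7 (-0.10, adjusted p = 0.532). The centromeric histone CENPA and the NDC80 complex genes NDC80 and NUF2, which hold the microtubule, fell less in TMD8 (-0.29, -0.26 and -0.39) and were within 0.10 of zero after scaling. None of the 5 passed in OCI-Ly7 (0 also at an unadjusted p under 0.05).

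All 9 kinesins fell in TMD8 at day 6, with a median of -0.60, and 4 passed after scaling (51.7% and 13.5% of all genes), KIF14, KIF20A, KIF20B and KIF4A. KIF14, which acts in cytokinesis, was 9.34 and 7.93 FPKM at day 0, 6.11 and 5.74 at day 3, then 4.31 and 4.43 at day 6 (-0.84, SE 0.10, adjusted p = 0.00262). In OCI-Ly7 KIF14 was 5.3 and 4.66, then 4.73 and 4.42, then 5.21 and 4.99. KIF11, the motor that separates the spindle poles, was 41.7 and 38.2, then 32.8 and 28.5, then 25.5 and 26.4 in TMD8 (-0.60, SE 0.09, adjusted p = 0.00405, and -0.25, adjusted p = 0.0512, after scaling) and 39.7 and 42.6, then 39.3 and 34.2, then 31.8 and 31.4 in OCI-Ly7 (-0.37, adjusted p = 0.075). KIF20B and KIF23, motors of the midzone and midbody, passed in OCI-Ly7 (-0.42, adjusted p = 0.0498, and -0.56, adjusted p = 0.0369), and neither passed after scaling. KIFC1, a minus-end motor, is listed at 0 in the first day 3 library of OCI-Ly7, while the other 5 libraries of that line lay between 12.3 and 18.4. Its day 3 value of -2.35 has an SE of 1.11 and rests on that entry. The reads of KIF4A could be shared with its near-identical copy KIF4B, which was under 2 FPKM in all 12 libraries.

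Among 10 spindle-associated genes, all 10 fell in TMD8 and 4 passed after scaling (51.7% and 13.5% of all genes), ASPM, CKAP5, PRC1 and TPX2. CKAP5, a microtubule polymerase, went from 47.4 and 43.2 FPKM through 33.7 and 31.6 to 21.1 and 23.5 (-0.99, SE 0.08, adjusted p = 0.00167, and -0.64, adjusted p = 0.00397, after scaling), the second lowest change of the set in that line. ASPM, which focuses the spindle poles, fell in TMD8 from 12 and 10.8 to 6.41 and 6.62 (-0.72, adjusted p = 0.00267), while in OCI-Ly7 it was 7.87 and 8.78 at day 0 and 8.31 and 8.95 at day 6. TPX2, which activates AURKA on the spindle, was 88.6 and 81.5, then 60.9 and 60.6, then 51.7 and 53.6 in TMD8 (-0.68, SE 0.07, adjusted p = 0.00185). In OCI-Ly7 TPX2 was 50.5 and 57.8, then 48.7 and 43.6, then 42.4 and 39.8 (-0.39, adjusted p = 0.078). DLGAP5 and CKAP2 were the 2 of 10 to pass in OCI-Ly7. DLGAP5, a spindle protein also called HURP, was 28.2 and 34.9, then 23.3 and 23.7, then 19.3 and 16.4 (-0.78, SE 0.14, adjusted p = 0.0359, and -0.64, adjusted p = 0.0406, after scaling). HMMR, a partner of TPX2, was 29.6 and 37.6, then 27.5 and 23.7, then 23.0 and 18.3 (-0.67, SE 0.17, adjusted p = 0.0601). CKAP2, which stabilises spindle microtubules, passed under both scalings (-0.52 and -0.37).

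Cytokinesis signalling genes fell in both lines. ECT2, the exchange factor that activates RhoA at the cleavage furrow, was 21.0 and 20.8 FPKM at day 0 and 13.1 and 12.4 at day 6 in TMD8 (-0.68, SE 0.07, adjusted p = 0.00204), and 13.2 and 14.9 against 8.96 and 8.31 in OCI-Ly7 (-0.64, SE 0.11, adjusted p = 0.0347). It passed after scaling in both lines (-0.33 and -0.50). RACGAP1, its partner at the midzone, fell as deposited in both (-0.38 and -0.50) and in neither after scaling.

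All 7 chromosome structure genes fell in TMD8, with TOP2A lowest of the 55 members, and 1 fell in OCI-Ly7. TOP2A, a topoisomerase which untangles sister chromatids, was 117 and 109 FPKM at day 0 in TMD8, 74.6 and 69.9 at day 3, then 46.6 and 47.0 at day 6. The mean went from 113 ± 5.85 (SD, n = 2) to 46.8 ± 0.27 (SD, n = 2), 41.4% of day 0. Its log2 change at day 6 was -1.25 (SE 0.07, adjusted p = 0.001, and -0.89, adjusted p = 0.00332, after scaling), and 0.794% of tested genes had a lower one. In OCI-Ly7 TOP2A was 92.2 and 102, then 85.5 and 80.4, then 93.6 and 92.6 (-0.06, adjusted p = 0.69). All 5 condensin genes, whose ring complex compacts chromosomes, fell in TMD8 as deposited, and NCAPD2 and NCAPH passed after scaling. In OCI-Ly7 SMC2 (-0.42, adjusted p = 0.0524), NCAPG (-0.37, adjusted p = 0.0622) and NCAPH (-0.39, adjusted p = 0.102) did not pass. NCAPD2 fell from 68.5 and 63.3 to 33.0 and 36.4 in TMD8 (-0.91, SE 0.07, adjusted p = 0.00162) and from 51.5 and 58.2 to 38.6 and 38.1 in OCI-Ly7 (-0.50, SE 0.11, adjusted p = 0.0463), and passed after scaling in both. SMC4, its core ATPase, was 93.4 and 87.8, then 92.8 and 84.1, then 99.2 and 104 in OCI-Ly7 (0.17, adjusted p = 0.281, and 0.32, adjusted p = 0.0477, after scaling), and fell in TMD8 as deposited (-0.45, adjusted p = 0.0143, and -0.09, adjusted p = 0.357, after scaling). MKI67, the proliferation marker Ki-67, was 38.0 and 26.4, then 23.3 and 25.1, then 18.6 and 22.8 in TMD8 (-0.60, SE 0.18, adjusted p = 0.0312, and -0.25, adjusted p = 0.264, after scaling), with its day 0 libraries far apart. In OCI-Ly7 MKI67 was 23.2 and 24.7, then 23.4 and 20.4, then 15.9 and 18.2 (-0.47, adjusted p = 0.0585).

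FOXM1, the transcription factor of the set, was lower in TMD8 at day 3 and at the same level at day 6. It was 30.0 and 25.7 FPKM at day 0, 17.7 and 19.9 at day 3, then 17.6 and 19.7 at day 6 (-0.54, adjusted p = 0.0224, and -0.55, adjusted p = 0.00848). After scaling these were -0.25 and -0.20, and neither passed. In OCI-Ly7 FOXM1 was 29.9 and 30.1, then 27.6 and 23.8, then 22.8 and 24.2 (-0.34, adjusted p = 0.0869). Of the other regulators of these promoters, MYBL2, which encodes B-MYB, fell in TMD8 from 193 and 168 to 113 and 139 (-0.52, adjusted p = 0.0144, and -0.16, adjusted p = 0.277, after scaling).

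**Figure D3:**
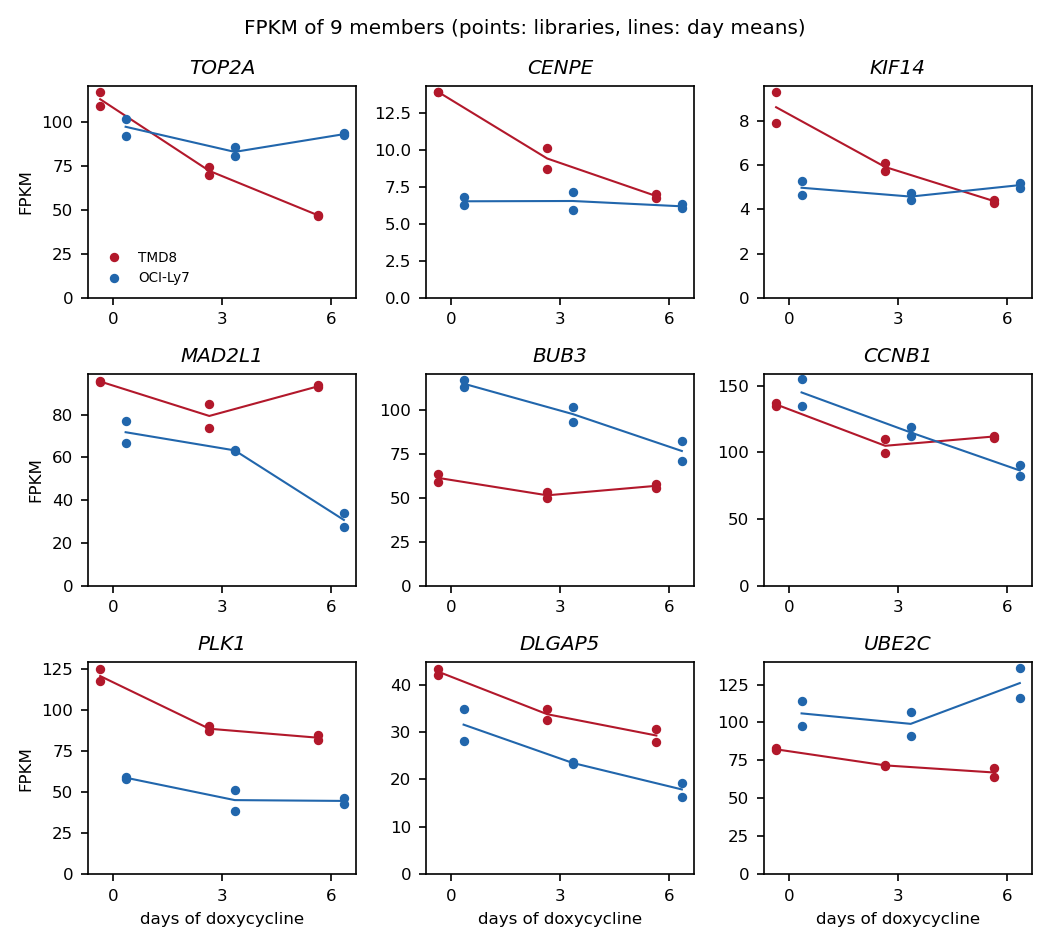
FPKM (vertical axis, from 0) of 9 members against days of doxycycline, with 1 point per library and lines through the day means, TMD8 in red and OCI-Ly7 in blue. TOP2A, CENPE and KIF14 decline in TMD8 and end near their day 0 values in OCI-Ly7, where TOP2A is lower at day 3. MAD2L1, BUB3 and CCNB1 are lower at day 6 in OCI-Ly7 than in its day 0 libraries. In TMD8 MAD2L1 and BUB3 end near or slightly below their start, and CCNB1 ends at 81.9% of its day 0 mean.

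The difference between the lines was tested directly, as OCI-Ly7 change minus TMD8 change in a fit of all 12 libraries over 9688 genes. At day 3 no member differed (12 at an unadjusted p under 0.05), where 0.0619% of all genes were called lower and 0.0413% higher. The same held after median-ratio scaling (1 at an unadjusted p under 0.05), with 0.0619% lower and 0.031% higher. At day 6, 14 members were higher, which means that they fell less or not at all in OCI-Ly7, against 18.4% of all genes, and 3 were lower, against 6.3%. The 14 are TOP2A, KIF14, CENPE, ASPM, CDC25C, CKAP5, SMC4, BUB1B, UBE2C, CENPF, PTTG1, INCENP, NUSAP1 and AURKB. The share of members among the higher calls, 14 of 55, is thus not far from that of all genes. The difference was 1.19 for TOP2A (SE 0.11, adjusted p = 0.000937) and 0.87 for KIF14 (SE 0.14, adjusted p = 0.00531). In the other direction it was -1.17 for MAD2L1 (SE 0.16, adjusted p = 0.00362), -0.47 for BUB3 (SE 0.13, adjusted p = 0.0274) and -0.45 for CCNB1 (SE 0.12, adjusted p = 0.0305). After median-ratio scaling 9 members were higher and 6 lower, against 14.1% and 19.0% of all genes, and 12 members had the same call as before. BIRC5, CCNA2 and CKAP2 then joined the lower ones, and AURKB, INCENP, NUSAP1, PTTG1 and UBE2C no longer passed. ASPM, BUB1B, CENPE, KIF14, MAD2L1, PTTG1 and TOP2A passed whichever of the 12 libraries was left out. The count of 17 became 7 without the first TMD8 day 0 library, 10 without the second of TMD8 day 0, the first of TMD8 day 6 or the second of OCI-Ly7 day 0, and 11 without the second of TMD8 day 6 or the first of OCI-Ly7 day 0.

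Across the 55 members the day 6 changes of the lines had no shared order, with a Pearson correlation of -0.15 and a Spearman correlation of -0.04 (over genes, which are not independent replicates). Lower in both lines were 11 members, 11 of the 52 called in TMD8 and 11 of the 13 called in OCI-Ly7. With 52 of 55 called in TMD8, nearly all of the 13 would be shared whatever their identity. They were BIRC5, CCNB1, CCNB2, CDC25B, CKAP2, DLGAP5, ECT2, KIF20B, KIF23, NCAPD2 and RACGAP1. After scaling 3 remained lower in both, CDC25B, ECT2 and NCAPD2, of 19 called lower in TMD8 and 10 in OCI-Ly7. The share of all genes lower in both lines is not given here, so neither count can be read as particular to the members.

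**Figure D4:**
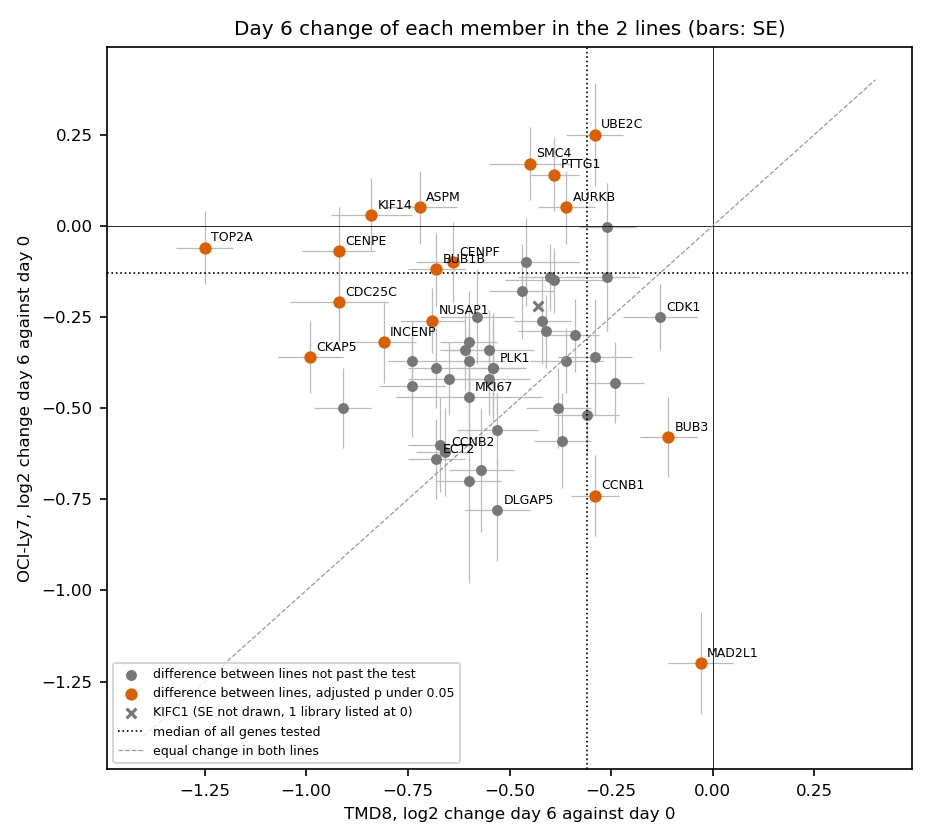
Log2 change at day 6 against day 0 of each member in TMD8 (horizontal) and OCI-Ly7 (vertical), with bars of 1 SE. Dotted lines mark the median of all tested genes and the dashed line equal change. The 17 members in orange differed between the lines, 14 above the dashed line with TOP2A farthest left and 3 below it with MAD2L1 lowest.

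In TMD8 the members with longer coding sequences tended to have lower values at day 6. CDC25C, NUSAP1 and CCNB2 (-0.92, -0.69 and -0.66) are low members with coding sequences of 1419, 1323 and 1194 nt. By the longest coding sequence in GENCODE release 29, the Pearson correlation of length (on a log scale) with the day 6 change was -0.58 over the 55 members and -0.31 over all 9314 tested genes with a length, and the Spearman values were -0.59 and -0.35. In OCI-Ly7 the members gave 0.17 and 0.15, and all 9651 genes 0.08 and 0.11. With the longest transcript in place of the coding sequence the members' Pearson value was -0.41 in TMD8 and -0.14 in OCI-Ly7. Split by coding length into 5 equal groups, all tested genes of TMD8 had medians of -0.17, -0.25, -0.33, -0.37 and -0.47 from shortest to longest. The 26 members in the longest group had a median of -0.61 and 19 of them lay below that group's median. The 5 members in the shortest group had a median of -0.29, and the 3 in the next one -0.13, among them CDK1 and BUB3. In OCI-Ly7 the medians of all genes were -0.15, -0.18, -0.16, -0.14 and -0.04, the 26 longest members had a median of -0.33, and 23 of them lay below their group's median. Length moves with the TMD8 result in this way, and its part in the result was not tested.

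**Figure D5:**
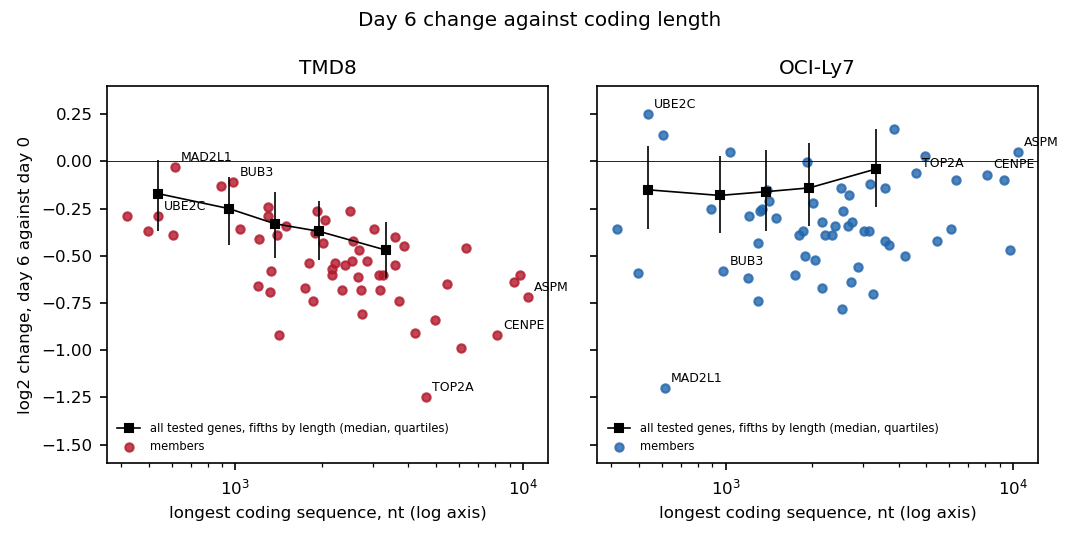
Log2 change at day 6 against day 0 (vertical axis) by longest coding sequence in nt (horizontal, log axis) in each line. Coloured points are the 55 members, and black squares with bars are the medians and quartiles of all tested genes in the 5 groups of length. In TMD8 the medians go from -0.17 to -0.47 with length and TOP2A and CENPE lie well below them, while in OCI-Ly7 the medians run from -0.18 to -0.04.

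Other genes of the same pathways were read from lists of related genes. Of 69 tested other mitotic genes, such as further kinetochore, condensin and centrosome genes, 39 were lower and 1 higher in TMD8 at day 6 (median -0.32), and 10 lower and 11 higher after scaling (median 0.02). The shares of all genes called lower and higher were 51.7% and 3.89% in TMD8 as deposited and 13.5% and 15.4% after scaling, and 9.39% and 1.98%, then 8.05% and 6.71%, in OCI-Ly7. They apply to the counts of all 5 lists. Single genes of the lists are given as deposited. The lowest were CENPI (-1.0, adjusted p = 0.00184) and NCAPG2 (-0.90, adjusted p = 0.00183), and the highest CKS2, a CDK1 subunit (0.27, adjusted p = 0.0288), and CENPK (0.15, adjusted p = 0.311). In OCI-Ly7 10 of 69 were lower and 0 higher (median -0.26), and 11 lower and 3 higher after scaling, with CENPU (-0.86) and SPC24 (-0.80) lowest and KNTC1 (0.47, adjusted p = 0.0508) and PKMYT1 (0.27, adjusted p = 0.562) highest. Of 17 genes listed with the anaphase-promoting complex, which are not all subunits, 10 fell in TMD8 and 4 in OCI-Ly7. After scaling 1 was lower and 3 higher in TMD8, and 4 lower and 1 higher in OCI-Ly7. ANAPC1 (-0.64) and ANAPC16 (-0.49) were the lowest in TMD8, where CDC26 (-0.06) and FBXO5 (0.03) did not pass, and ANAPC5 (-0.66) and CDC23 (-0.64) the lowest in OCI-Ly7, where UBE2S (-0.08) and ANAPC11 (0.25) did not pass. Of 12 cohesin genes, 10 fell in TMD8 and 3 in OCI-Ly7, with the ring subunit SMC1A lowest in both (-1.12, adjusted p = 0.03, and -0.62, adjusted p = 0.0499). After scaling 0 cohesin genes were lower and 2 higher in TMD8, and 2 lower and 1 higher in OCI-Ly7. SMC1A was 7.55 and 17.4 FPKM in the day 6 libraries of TMD8, which were far apart. STAG1 (-0.55) was next in TMD8 and ESCO2 (-0.52) in OCI-Ly7, and the highest were ESCO2 (0.06) and ESCO1 (-0.08) in TMD8 and MAU2 (0.38) and NIPBL (0.04) in OCI-Ly7 as deposited, of which none passed on that scale.

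DNA replication and G1/S genes act just before the members in the cycle. Of 41 tested in TMD8, 15 were lower and 2 higher at day 6 (median -0.18), against 51.7% and 3.89% of all genes. After scaling 3 were lower and 17 higher (median 0.18), against 13.5% and 15.4%. The polymerase genes POLD1 (-1.18, adjusted p = 0.00136) and POLA1 (-0.73, adjusted p = 0.00915) were lowest, and CCNE2, cyclin E2 (0.38, adjusted p = 0.0219), and ORC6 (0.38, adjusted p = 0.111) highest. In OCI-Ly7 10 were lower and 0 higher (median -0.37), and 11 and 0 after scaling, with ORC6 (-1.01, adjusted p = 0.0665) and RRM2, a ribonucleotide reductase subunit (-0.77, adjusted p = 0.0345), lowest and CDT1 (0.54, adjusted p = 0.173) and POLE (0.21, adjusted p = 0.331) highest. Of the MuvB, MYB and E2F regulators, 11 of 19 fell in TMD8 and 2 of 20 in OCI-Ly7, against 51.7% and 9.39% of all genes. After scaling 0 were lower and 1 higher in TMD8, against 13.5% and 15.4%. In OCI-Ly7 1 was then lower, against 8.05%. RBL2 (-0.57) and MYBL2 were lowest in TMD8 and LIN37 (0.03) and E2F5 (0.05) highest, while in OCI-Ly7 TFDP1, a partner of E2F (-1.0, adjusted p = 0.0345), and RBBP4 (-0.68, adjusted p = 0.0507) were lowest and LIN37 (0.10) and RBL2 (0.12) highest. After scaling, CKS2, CENPK, CDC26, FBXO5, ESCO1, ESCO2, E2F5, CCNE2 and ORC6 were called higher in TMD8 and KNTC1, ANAPC11 and MAU2 in OCI-Ly7. ANAPC16, SMC1A, STAG1, RBL2 and MYBL2 in TMD8, and SMC1A in OCI-Ly7, then no longer passed as lower. Whether the members differ from these lists was not tested.

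For 16 members an exon overlaps that of another gene in GENCODE release 29, mostly on the opposite strand, such as CCNA2 with EXOSC9, CDC25C with FAM53C, KIF20A with CDC23, NCAPD2 with MRPL51, SMC4 with IFT80 and TRIM59, and FOXM1 with ITFG2. The sources used here do not say that counting used strand, so reads from the overlapping parts cannot be told apart. PTTG1 and AURKA also have near-identical copies, of which PTTG3P was 4.44 to 13.0 FPKM and AURKAPS1 2.31 to 6.14 over the 12 libraries, and PTTG2 did not exceed 1.5.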

How the data were processed

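RNA from 2 lymphoma lines at 3 time points was measured in 12 libraries, grouped by line and day as the sample labels give them. The deposited files hold FPKM per gene, 1 table per line, which the authors made with HISAT and StringTie on hg19, per the submitters' processing notes. Their versions are not given in the sources used here. Every fragment of one gene lowers the FPKM of the rest, and FPKM gives no read counts, so no interval for single values could be given. Of 25369 rows per table, 28 carry names turned into dates and none is a member.

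Genes with a mean of at least 1 FPKM over the 6 libraries of a line were kept (10456 in TMD8, 11016 in OCI-Ly7, 9688 in both). Values were taken as log2(FPKM + 1), which understates changes of low genes, and fitted with limma 3.58.1 in R 4.3.3 with a variance trend, all 3 days of a line together (3 residual degrees of freedom), p-values being two-sided and Benjamini-Hochberg adjusted over all genes. The difference between lines was an interaction in 1 fit of all 12 libraries. Tables and figures used Python 3.11.15, pandas 2.3.3, numpy 2.4.6 and matplotlib 3.10.9. On simulated data, 180 of 200 genes changed by 1 log2 unit were recovered in TMD8 with 3 false calls, and 147 of 200 in OCI-Ly7 with 6. The changed genes had a mean of at least 5 FPKM, and no simulated library was shifted as a whole. These figures thus do not bear on calls that depend on the scaling or on smaller changes. Alternatives were other scalings, a pseudocount of 0.1, other filters, no trend, a block for the replicate number, fits of 2 days alone and leaving out each library.

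The members and lists were chosen with earlier results of these data known. Any member could be named, 16 central ones and the extremes of each line were to have values in every library, and from the other lists the 2 lowest and 2 highest genes per line were named. Promoter windows came from RefSeq (GRCh38.p14) and coding lengths from GENCODE release 29, neither of the build of the files, and both were joined by symbol. The descriptions by length and motif were added after seeing the data.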

Additional observations from a re-analysis of the deposited data

Results flagged for a closer look

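The change from day 0 to day 6 differed between the lines for 17 members by limma's interaction test. The OCI-Ly7 change was the higher one for 14, against 18.4% of all genes, and the lower one for 3, against 6.3%. The share of higher calls among members is thus not far from that of all genes. Given as OCI-Ly7 minus TMD8 on the log2(FPKM + 1) scale, the values were 1.19 for TOP2A, 0.87 for KIF14, 0.85 for CENPE, 0.77 for ASPM, 0.71 for CDC25C, 0.63 for CKAP5, 0.61 for SMC4, 0.56 for BUB1B, 0.55 for UBE2C, 0.54 for CENPF, 0.53 for PTTG1, 0.49 for INCENP, 0.43 for NUSAP1 and 0.41 for AURKB. In the opposite direction they were -0.45 for CCNB1, -0.47 for BUB3 and -1.17 for MAD2L1. The median of this difference over all 9688 tested genes was 0.16, and -0.02 after median-ratio scaling. After that scaling AURKB (0.20), INCENP (0.28), NUSAP1 (0.22), PTTG1 (0.32) and UBE2C (0.34) no longer passed, while the 12 others kept their call. With the members that joined, 9 were then higher and 6 lower, against 14.1% and 19.0% of all genes. Groups of 2 libraries are too small to look for a library that stands apart.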

How the results depend on the processing

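The median change of the members stayed negative in each line at days 3 and 6 under every alternative run, but counts of calls did not hold. In TMD8 the 53 members past the threshold at day 3 became 0 with an equal sum of FPKM per library, with median-ratio scaling, with the replicate block and after rescaling without ribosomal RNA, small RNA and histone rows, and the 52 at day 6 became 21 with median-ratio scaling and 31 after that rescaling. For day 6 against day 3 in TMD8 the 5 became 20 with equal sums, 19 after rescaling, 3 without the variance trend, and 1 each without a filter, with the replicate block and with the 2 days alone. In OCI-Ly7 the 13 at day 6 became 0 without a filter and 8 both without the trend and with the replicate block. The 0 for day 6 against day 3 became 1 with equal sums, 2 with median-ratio scaling and 5 after rescaling. Shares of all genes called are given here only for FPKM as deposited and for median-ratio scaling. Counts under the other settings thus cannot be read as particular to the members. For TMD8, leaving out 1 library gave between 0 and 54 members at day 3, between 32 and 51 at day 6, and between 0 and 3 for day 6 against day 3. In OCI-Ly7 it gave 0 to 1 at day 3, 0 to 10 at day 6 and 0 to 1 for day 6 against day 3, the 1 in both cases without the second day 3 library. The difference between lines then held for 0 to 1 members at day 3 and 7 to 19 at day 6, with 7 without the first TMD8 day 0 library. Without the second day 3 library of OCI-Ly7, day 3 of that line rests on the library where KIFC1 is listed at 0. The lowest member change at day 3 was then -4.21, and the highest for day 6 against day 3 was 3.99. For the difference between lines at day 3 the lowest was -3.75, that of KIFC1. The cause of the shifts in counts was not tested.

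Some signs turned, in TMD8 also for members called lower as deposited. Day 6 values in TMD8 with median-ratio scaling were AURKB 0.004, BUB3 0.25, CCNA2 0.12, CCNB1 0.08, CDC20 0.02, CDK1 0.23, CENPA 0.06, CKAP2 0.04, MAD2L1 0.33, NDC80 0.10, TACC3 0.09 and UBE2C 0.07. After rescaling they were BUB3 0.10, CDK1 0.08 and MAD2L1 0.18, and with equal sums MAD2L1 0.05. In OCI-Ly7 they were, with median-ratio scaling, BUB1B 0.03, CENPE 0.07, CENPF 0.04, ESPL1 0.04, NDC80 0.15, NUF2 0.002, SPAG5 0.01, TACC3 0.01 and TOP2A 0.09. After rescaling they were BUB1B 0.05, CENPE 0.09, CENPF 0.06, ESPL1 0.06, NDC80 0.17, NUF2 0.02, SPAG5 0.03, TACC3 0.03 and TOP2A 0.11, and with equal sums CENPE 0.02, NDC80 0.10 and TOP2A 0.04. Without 1 library of OCI-Ly7, ASPM ranged down to -0.02 and -0.001, KIF14 to -0.05, and NDC80 up to 0.03 and 0.04, and TOP2A lay between -0.14 and 0.01.

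Libraries with the same replicate number did not deviate together (correlations of -0.147 to 0.08 in TMD8 and -0.08 to 0.133 in OCI-Ly7). The labels do not say whether such libraries share a culture, and these values do not settle it. With the replicate block 50 members passed in TMD8 at day 6 and 14 differed between lines, while 0 passed in TMD8 at day 3 and 8 in OCI-Ly7 at day 6. Absolute depth is unknown, and 2 libraries a group limit the precision of single members.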
